A study of Mus musculus with 4 samples.

Results

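The 10 basement membrane genes described here encode the laminin chains alpha1 (Lama1), alpha5 (Lama5), beta1 (Lamb1) and gamma1 (Lamc1), the collagen IV chains alpha1 (Col4a1) and alpha2 (Col4a2), nidogen-1 (Nid1), nidogen-2 (Nid2), perlecan (Hspg2) and the collagen-binding glycoprotein SPARC (Sparc). They are 10 of the 55418 genes of the table, and all 10 were among the 18444 that passed a filter on low counts. They were chosen by their function with the counts of the libraries and the differences between the groups already known. Their values in that comparison are therefore given as a description, with standard deviations (SD) or standard errors (SE) and without a test.

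RNA-seq was done on the mouse embryonic stem cell (ESC) line E14, labelled as strain 12910la, in 2 wild-type (WT) cultures and 2 Pim3-/- clones, 1 library each. Pim3 encodes a serine/threonine kinase and was disrupted with CRISPR/Cas9 and a pair of guide RNAs. All the cells were grown on gelatin in medium with serum and LIF, the cytokine that holds ESCs undifferentiated. The labels do not say which replicate number is which clone, and the effect of the deletion cannot be told apart from differences between single clones and the WT cultures.

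Basement membranes are thin sheets of matrix on which epithelial and endothelial cells sit. Laminins, trimers of an alpha, a beta and a gamma chain, form one network of the sheet, and collagen IV, whose major form holds 2 alpha1 chains and 1 alpha2 chain, forms the other, while nidogens and the heparan sulfate proteoglycan perlecan join them. In the early embryo the sheet lies between the epiblast and the primitive endoderm, and parietal endoderm deposits a thick one, Reichert's membrane. ESCs also make laminins and collagen IV in culture.

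The libraries held 22029427 to 25668307 counts, and levels are in CPM, the usual count relative to the total of its library, with totals scaled by the TMM factors of edgeR. The median gene had a log2 fold change of 0.07 between the groups with these factors and of 0.52 with library totals alone, so that fold changes are also given relative to the median of all genes where that matters. Counts over the whole Pim3 gene were 4392 and 4953 in WT, against 4970 and 4804 where the label is Pim3-/- (log2 fold change -0.27, SE 0.17). The guides cut within exons and such a count also holds reads from outside the edited bases, so it does not test the labels. The stem cell marker Pou5f1 (Oct4) was present in every library, at 45110 and 48413 counts for WT and 29466 and 24659 for Pim3-/-. Each pair of replicates differed by more than sampling noise (chi-square test of the counts over genes), and each library was counted as 1 replicate.

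Col4a1 and Col4a2 stand head to head on chromosome 8 of GRCm38, the genome build of the counts. Col4a1 runs on the minus strand from 11198423 to 11312826 and Col4a2 on the plus strand from 11312805 to 11449287, so that their first exons share 22 bases. Their promoter windows in RefSeq (GRCm38.p6), 250 bases before to 50 bases after each start, are shown because these were the members that differed most between the groups and did so together. Each is written 5' to 3' on the strand of its gene, and capitals mark the 78 bases that both windows hold, chr8:11312777-11312854. The Col4a1 window is chr8:11312777-11313076 (minus) and the Col4a2 window chr8:11312555-11312854 (plus).
Col4a1: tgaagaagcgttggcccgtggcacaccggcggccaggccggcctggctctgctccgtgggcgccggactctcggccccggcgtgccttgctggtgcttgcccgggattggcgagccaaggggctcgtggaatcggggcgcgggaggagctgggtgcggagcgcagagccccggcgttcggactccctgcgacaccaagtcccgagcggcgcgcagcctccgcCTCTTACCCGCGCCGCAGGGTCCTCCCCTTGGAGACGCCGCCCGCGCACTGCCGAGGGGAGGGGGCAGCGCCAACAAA
Col4a2: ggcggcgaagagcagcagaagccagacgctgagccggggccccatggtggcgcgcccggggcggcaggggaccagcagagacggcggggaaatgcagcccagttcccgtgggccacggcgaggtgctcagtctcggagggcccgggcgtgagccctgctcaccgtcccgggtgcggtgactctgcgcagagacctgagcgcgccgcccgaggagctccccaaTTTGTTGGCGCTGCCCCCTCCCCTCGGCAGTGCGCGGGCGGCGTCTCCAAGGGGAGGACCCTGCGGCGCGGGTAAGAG

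Motifs were searched for on both strands by exact letters. The GC box was taken as GGGCGG and the CCAAT box by the letters of its name. A TATA box was taken as the letters TATAAA, and a site of the GATA factors was taken as AGATAA. None of the 4 is contained in another. The shared 78 bases held 1 GC box and none of the others. In the whole windows, Col4a1 had 1 GC box and Col4a2 had 3, and each had 1 CCAAT box. RefSeq windows were found for 7 of the 10 members, namely also for Lama5, Lamb1, Nid1, Hspg2 and Sparc. A GC box was in 6 of these 7 windows, the exception being Sparc, and in 35.7% of the 32851 windows of the table. The CCAAT box was in 4 of the 7 (Col4a1, Col4a2, Lamb1 and Nid1) and in 37.4% of all windows. The TATA box and the GATA site were in none of the 7, against 13.6% and 11.2% of all windows. The share of G and C was 74.0% for Col4a1, 73.7% for Col4a2, 72.7% for Lama5 and 70.3% for Hspg2, and 55.3% for Sparc, with a median of 52.7% over all windows.

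As a group, the basement membrane genes made up 0.0940% and 0.113% of the counts of the WT libraries and 0.228% and 0.253% of those of the Pim3-/- libraries. Their summed level was 1137 and 1284 CPM in WT and 1953 and 2159 CPM in Pim3-/-. Of the 10, 7 had a fitted level at least 2-fold higher in Pim3-/- ESCs, as had 18.4% of all tested genes, and none was at least 2-fold lower, as were 9.53%. In 7, both Pim3-/- libraries lay above both WT libraries (38.3% of all tested genes), in 1, Sparc, both lay below (34.2%), and in Lamc1 and Nid1 the groups overlapped. Since the genes were listed with this comparison known, nothing is read from these counts. Their median log2 fold change stood at 1.30, 1.23 over that of all genes. With library totals 8 of the 10 were at least 2-fold higher, as were 30.6% of all genes, and 5 were without WT replicate 1 (19.8% of all genes) or without Pim3-/- replicate 2 (18.6%). In libraries of whole cultures, more RNA per cell and more cells of a producing type cannot be told apart.

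**Figure D1:**
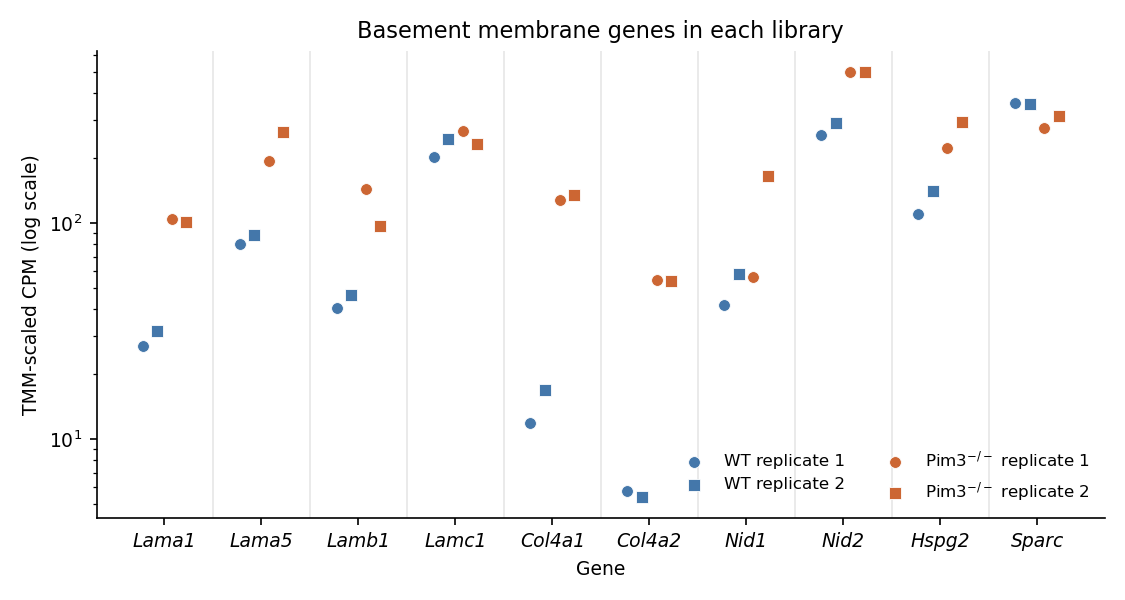
Level of the 10 basement membrane genes (TMM-scaled CPM, log scale) in the 2 WT libraries (blue) and the 2 Pim3-/- libraries (orange), 1 point per library, with circles for replicate 1 and squares for replicate 2. Col4a1 and Col4a2 are far apart between the groups and close together within Pim3-/-, while for Nid1 only Pim3-/- replicate 2 stands above the WT libraries.

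The collagen IV chains differed most. Counts of Col4a1 were 228 and 385 in WT, against 3405 and 3474 in Pim3-/-, which is 11.9 and 17.0 CPM against 128 and 135 CPM. Those of Col4a2 were 110 and 123, against 1460 and 1401, or 5.74 and 5.43 CPM against 54.7 and 54.3 CPM. Both genes were low in each WT library and about equally high in each clone, with no overlap. The mean was 14.5 CPM ± 3.60 (SD, n = 2) in WT and 131 CPM ± 5.08 (SD, n = 2) in Pim3-/- for Col4a1, a ratio of 9.07. For Col4a2 it was 5.59 CPM ± 0.221 (SD, n = 2) and 54.5 CPM ± 0.251 (SD, n = 2), a ratio of 9.76. The log2 fold changes were 3.18 (SE 0.22) and 3.29 (SE 0.18), and 98.3% of all tested genes lay at or below the value of Col4a1. Col4a2 shares 43 exon bases with the antisense gene Gm15419, which had 0 and 1 counts in WT, against 26 in each Pim3-/- library. Whether reads were assigned by strand is not given in the sources used here, and even all of the Gm15419 counts are few beside those of Col4a2.

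Per kb of exon, Col4a1 was at 1.84 and 2.78 times the level of Col4a2 in the WT libraries and at 2.07 and 2.20 times in the Pim3-/- libraries. The ratio in the clones lay inside the range of the WT cultures, and such a ratio within a library does not depend on how libraries are scaled. The ratio had a mean of 2.31 ± 0.663 (SD, n = 2) in WT and 2.13 ± 0.0925 (SD, n = 2) in Pim3-/-.

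The laminin chains differed unequally. Lama1, the alpha chain of the laminin of the earliest embryonic basement membranes (laminin-111, with beta1 and gamma1), lies at chr17:67697259-67822647 (plus). It was at 27.0 and 31.8 CPM in WT and at 105 and 102 CPM in Pim3-/- (log2 fold change 1.81, SE 0.17). Lama5, the alpha chain of laminin-511, on which ESCs attach well, lies at chr2:180176373-180225859 (minus) and was at 80.2 and 88.3 CPM in WT and at 195 and 263 CPM in Pim3-/- (log2 fold change 1.44, SE 0.21). In both alpha chains, each clone lay above each WT culture. The beta1 chain, Lamb1 (chr12:31265234-31329644, plus), was at 40.5 and 46.6 CPM in WT and at 145 and 97.6 CPM in Pim3-/- (log2 fold change 1.47, SE 0.22). Lamc1 (chr1:153218922-153332786, minus), the gamma1 chain that both trimers need, was at 202 and 246 CPM in WT and at 269 and 234 CPM in Pim3-/-. Its groups overlapped. The log2 fold change of Lamc1 was 0.17 (SE 0.19), 0.10 above the median of all genes, and it was -0.02 without WT replicate 1 and 0.61 with library totals.

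Lamc1 had the highest level per kb of the 4 chains in both groups. Per kb of exon, Lamb1 stood at 0.167 and 0.158 of the level of Lamc1 in the WT libraries and at 0.449 and 0.349 in the Pim3-/- libraries, with no overlap. The merged exons of Lamb1 are 9917 bases long and its longest transcript 5784, so that the absolute ratio depends on the length used, while its change between the groups does not. Lama1 stood at 0.396 and 0.424 of Lama5 in WT and at 0.631 and 0.454 in Pim3-/-. These values were higher in both clones, but Pim3-/- replicate 2 lay close to WT replicate 2.

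**Figure D2:**
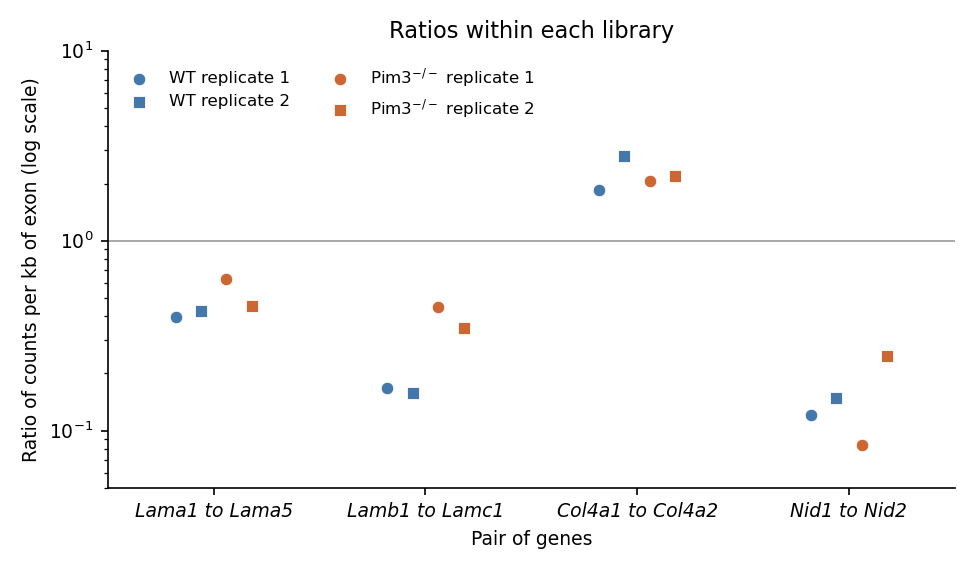
Ratio of the counts per kb of merged exons of 2 genes within each library (log scale; the grey line marks 1), with WT in blue, Pim3-/- in orange, circles for replicate 1 and squares for replicate 2. Lamb1 to Lamc1 is higher in both clones, Col4a1 to Col4a2 lies between 1.84 and 2.78 with the clones inside the range of the WT libraries, and Nid1 to Nid2 falls on either side of the WT libraries.

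Of the linkers, Nid2 (chr14:19751265-19811787, plus) was at 257 and 292 CPM in WT and at 502 and 500.1 CPM in Pim3-/-, the closest agreement between clones among the 10 members. The log2 fold change of Nid2 was 0.87 (SE 0.19). Nid2 shares 437 exon bases with Rtraf on the other strand, a gene at 7559 and 7058 counts in WT, against 4957 and 6666 in Pim3-/-, fewer in both clones while Nid2 was higher. Nid1 (chr13:13437551-13512269, plus), which binds the laminin gamma1 chain as Nid2 does, was at 41.8 and 58.2 CPM in WT and at 56.5 and 165 CPM in Pim3-/-. Only Pim3-/- replicate 2 stood above both WT libraries, at 2.92 times the level of replicate 1. The log2 fold change of Nid1 was 1.15 (SE 0.44), and it was 0.16 without Pim3-/- replicate 2 and 1.70 without replicate 1. The antisense gene Gm48682 shares 143 exon bases with Nid1 and moved with it, at 26 and 73 counts in WT, against 86 and 215 in Pim3-/-. Reads of the pair may not be separated. Even all of the Gm48682 counts are few beside those of Nid1, at 801 and 1318 in WT, against 1507 and 4256 in Pim3-/-. The ratio of Nid1 to Nid2 per kb was 0.0839 in replicate 1 and 0.246 in replicate 2 of Pim3-/-, against 0.121 and 0.149 in WT.

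Perlecan (Hspg2, chr4:137468769-137570630, plus), which carries heparan sulfate and ties the laminin and collagen IV networks to growth factors, was at 111 and 142 CPM in WT and at 223 and 294 CPM in Pim3-/-. Both clones lay above both cultures (log2 fold change 1.04, SE 0.22). Sparc (chr11:55394500-55423183, minus), which binds collagen IV and acts on its deposition, was at 359 and 358 CPM in WT and at 276 and 314 CPM in Pim3-/-. Both clones lay below both cultures. Sparc was the member with a fitted value below 0 (log2 fold change -0.28, SE 0.18), at -0.35 from the median of all genes, and the value was 0.17 with library totals.

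**Figure D3:**
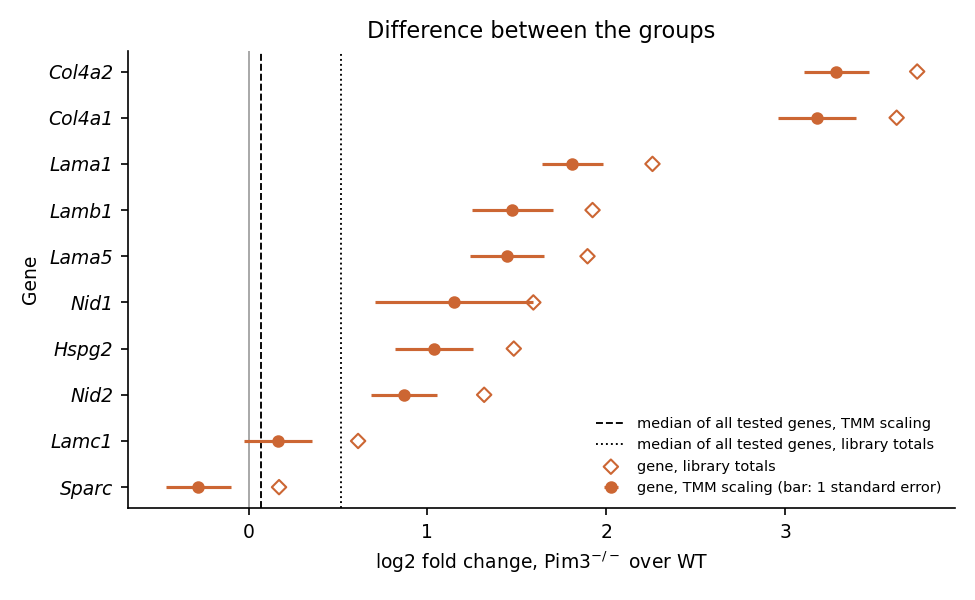
Fitted log2 fold change of each basement membrane gene, Pim3-/- over WT, with TMM scaling (filled circles, bars of 1 standard error) and with library totals (open diamonds). The dashed and dotted lines mark the median of all tested genes under each scaling, and Col4a2 and Col4a1 lie at 3.29 and 3.18, Sparc at -0.28.

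In WT ESCs, the order of the levels per kb of exon ran from Sparc, at 94.6 CPM per kb ± 0.219 (SD, n = 2), and Nid2, at 53.0 CPM per kb ± 4.69 (SD, n = 2), through Lamc1, Hspg2, Lama5, Nid1, Lamb1, Lama1 and Col4a1 to Col4a2, at 0.844 CPM per kb ± 0.0333 (SD, n = 2). The neighbours Hspg2, Lama5 and Nid1 overlapped between the libraries and the other neighbours did not. In Pim3-/- ESCs Nid2 came first, at 96.8 CPM per kb ± 0.212 (SD, n = 2), then Sparc, at 77.8 CPM per kb ± 7.15 (SD, n = 2), and Lamc1, at 32.5 and 28.2 CPM per kb. Lama5, Hspg2, Col4a1, Nid1, Lamb1 and Lama1 followed, each overlapping with its neighbour. Col4a2 again had the lowest mean, at 8.24 CPM per kb ± 0.0380 (SD, n = 2). In Pim3-/- replicate 1, Nid1 was below it, at 8.13 against 8.26 CPM per kb. Among all tested genes, Col4a1 moved from the 40.6 percentile of levels per kb in WT to the 84.1 percentile in Pim3-/-, and Col4a2 from the 27.2 to the 69.6 percentile.

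The order depends on the length used. Per kb of the longest transcript, Sparc stayed first in Pim3-/-, at 119.9 and 137 CPM per kb against 103 and 103 for Nid2, and Lamb1 overlapped with Lama5 in WT, at 7.01 and 8.06 against 7.04 and 7.75 CPM per kb.

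These are long transcripts, and 5 of the 10 have over 8 kb of merged exons. The median log2 fold change of all tested genes was -0.21 for those under 2 kb and 0.34 for those over 8 kb, and the part of length in the members' values was not tested.

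The genes nearest in pattern were sought over the 4 libraries by the Euclidean distance of log2 CPM centred on each gene's mean, as a description. Nearest to Col4a1 were Gm2895 (distance 0.15), C530008M17Rik (0.16) and Frem2 (0.23), a basement membrane protein, while Col4a2 came at rank 13 (0.41) among the 18444 tested genes. Nearest to Lamc1 were Gm4876, Msl2 and Gm16183 (0.02 to 0.05), and among those nearest to Sparc were Derl2 and Zfp82 (0.02 each). None of the other members was among the 3 nearest of any member.

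The rest of the basement membrane and its machinery was described with 7 lists of 90 companion genes, none of them members and 82 of them tested. At an adjusted p under 0.05 in the quasi-likelihood test of edgeR, 41 of the 82 passed as higher and 4 as lower in Pim3-/- ESCs, against 17.6% higher and 16.2% lower of all tested genes. Some, such as Lox, P3h2, Lamc3, P4ha3, Col4a5, Col15a1 and Adamts1, passed the filter on low counts through their Pim3-/- counts alone. For these only a rise could be called. With 10 counts required in every library, 32 companion genes passed as higher and 3 as lower, against 2689 and 2496 of all 15916 genes then tested. With library totals 57 and 2 passed, and the calls over all genes, 3246 higher and 2987 lower, became 6606 and 1092. Their median log2 fold change was 0.84. With 1 library of a group left out, the spread comes from the 2 libraries of the other group alone. Calls without a Pim3-/- library therefore hold no spread between clones. With 1 library left out, when the lone library of a group is assumed to vary like the others, the number higher was 12 without WT replicate 1, 13 without WT replicate 2, 50 without Pim3-/- replicate 1 and 43 without Pim3-/- replicate 2, and the number lower was 1, 2, 6 and 11. In each of the 7 lists fewer genes passed as higher without either WT library, and 17 and 16 of 30 companion genes followed singly lost their call then.

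**Figure D4:**
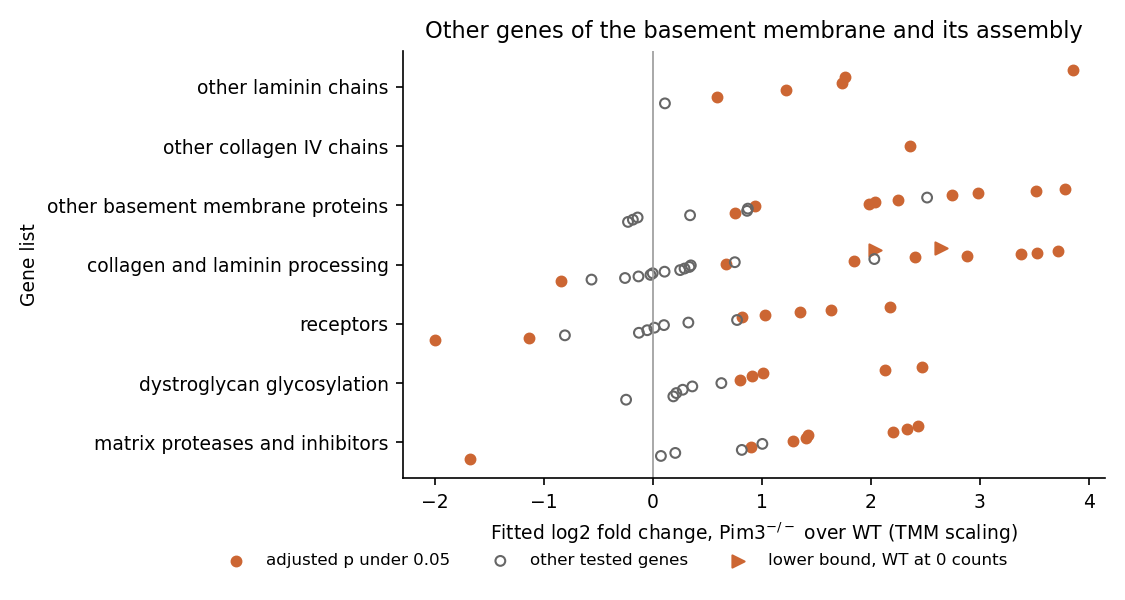
Fitted log2 fold change (Pim3-/- over WT) of the 82 tested companion genes by list, with filled points for genes at an adjusted p under 0.05, open points for the others and triangles for the lower bounds of Lox and P3h2, which had no counts in WT. The filled points lie mostly to the right of 0, and the exceptions are Ppib, Bcam, Itga1 and Timp1.

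Of the other laminin chains, 5 of 6 tested rose and none fell (also none at an unadjusted p under 0.05, and none with DESeq2, which called 2 higher). None passed without WT replicate 1 or 2, where the log2 fold change of Lamb3 was 1.74 and 1.64 and that of Lama4 2.21 and 1.25. Lamb3, a chain of the laminin of epithelial anchoring complexes, rose from 32 and 36 counts to 174 and 118 (log2 fold change 1.76, SE 0.34, adjusted p = 0.00954). Lama4, an alpha chain of vessel walls, rose from 13 and 8 counts to 44 and 46 (log2 fold change 1.74, adjusted p = 0.0309), a call that DESeq2 did not make. Lamc3 had 1 and 0 counts in WT, against 11 in each clone, a ratio of 17.5 with a 95% counting interval of 2.83 to 723, and was not called by DESeq2 either. None of these 3 chains exceeded 174 counts in a library. Of the other collagen IV chains, only Col4a5 passed the filter. It had 2 counts in each WT library and 11 and 16 in Pim3-/-, a ratio of 5.38 with a counting interval of 1.87 to 21.2 (adjusted p = 0.0348), and did not pass without a WT library, without Pim3-/- replicate 2, without the filter or with DESeq2 (none higher or lower). Col4a3, Col4a4 and Col4a6 had at most 4 counts in any library.

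Among 16 tested other proteins of the sheet, 9 rose and none fell (none at an unadjusted p under 0.05 and none with DESeq2, which called 8 higher), and 3 and 4 passed as higher without WT replicate 1 and 2. Frem2, a large protein of the membrane under embryonic epithelia, rose from 19 and 28 counts to 324 and 351 (log2 fold change 3.52, SE 0.29, adjusted p = 0.0022). Tinagl1, which binds laminin, rose from 76 and 101 counts to 370 and 1366 (log2 fold change 2.98, adjusted p = 0.00953), and without Pim3-/- replicate 2 the change was 1.70. Collagen XV (Col15a1) had 0 and 2 counts in WT, against 26 and 12 in Pim3-/-, a ratio of 15.1 with a counting interval of 3.91 to 130 (adjusted p = 0.0213). It did not pass without WT replicate 1 (log2 fold change 2.90, adjusted p = 0.202) or 2 (adjusted p = 0.0749, with WT then at 0). Peroxidasin (Pxdn), which forms the sulfilimine bonds between collagen IV molecules and is named here after its values were seen, rose from 155 and 204 counts to 839 and 1004 (log2 fold change 2.04, SE 0.20, adjusted p = 0.00287). Agrin (Agrn) and collagen XVIII (Col18a1), named after their values were seen, did not pass, with log2 fold changes of 0.34 (SE 0.23) and -0.23 (SE 0.20).

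Among 22 tested genes for the modification, folding, export and crosslinking of collagen chains, 9 rose and 1 fell, and 5 passed as higher without either WT library. P4ha1, P4ha2, Plod2, Loxl1 to Loxl4 and Serpinh1 are named after their values were seen. The prolyl 4-hydroxylase subunits P4ha1 and P4ha2, which stabilise the triple helix, rose from 987 and 1150 counts to 6016 and 8141 and from 198 and 260 to 3361 and 2605. Their log2 fold changes were 2.40 (SE 0.22) and 3.38 (SE 0.20), with adjusted p-values of 0.0025 and 0.000808. The lysyl hydroxylase Plod2 rose from 692 and 884 counts to 3047 and 4046 (log2 fold change 1.85, adjusted p = 0.00338). Both clones were above both WT cultures in each of the 3 enzymes.

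Of the 5 crosslinking enzymes of the lysyl oxidase family, Lox, Loxl1 and Loxl2 rose. Loxl3 had 167 and 178 counts against 198 and 98 in Pim3-/- (log2 fold change -0.56, adjusted p = 0.236) and Loxl4 had 6 and 9 against 18 and 59 (2.03, adjusted p = 0.0548), and neither passed. Loxl2, which crosslinks collagen IV, went from 139 and 144 counts to 1442 and 2652 (log2 fold change 3.53, SE 0.32, adjusted p = 0.0026). Loxl1 went from 34 and 29 counts to 296 and 295, with a log2 fold change of 2.89 (adjusted p = 0.00304). Lox had no counts in WT and 12 and 19 in Pim3-/-, at least 4.10-fold higher against 3 counts in each WT library, and 3.11-fold without Pim3-/- replicate 2. The prolyl 3-hydroxylase P3h2, which acts on collagen IV, had no counts in WT and 37 and 11 in Pim3-/-, at least 6.27-fold higher, a bound that was 2.95-fold without Pim3-/- replicate 1 and 9.59-fold without replicate 2. P4ha3 had 1 and 0 counts in WT, against 10 in each clone (ratio 15.9, counting interval 2.55 to 660.3), and was not called by DESeq2 or without the filter. The collagen chaperone HSP47 (Serpinh1) rose less, from 427 and 504 counts to 1022 and 846 (log2 fold change 0.67, SE 0.17, adjusted p = 0.0222). Ppib, a prolyl isomerase that assists folding, fell from 7147 and 7417 counts to 5544 and 4728 (log2 fold change -0.84, SE 0.19, adjusted p = 0.0145). It did not pass with library totals, at -0.39, or without WT replicate 1 or 2, at -0.80 and -1.02. The median of the list was 0.51, also with Lox and P3h2 at their bounds.

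The receptors were mixed, with 5 of 14 tested higher and 2 lower, 7 and 1 with library totals, and 1 higher without either WT library. Dystroglycan (Dag1), a receptor of laminin, perlecan and agrin, rose from 1396 and 1857 counts to 5094 and 5251 (log2 fold change 1.35, SE 0.17, adjusted p = 0.00408). Syndecan-3 (Sdc3) rose from 25 counts in each WT library to 149 and 138 (log2 fold change 2.18, adjusted p = 0.00534) and the laminin-binding integrin subunit Itga7 from 40 and 68 to 153 and 263 (log2 fold change 1.64, adjusted p = 0.016). Bcam, a receptor of laminin alpha5, fell from 4556 and 5086 counts to 2937 and 2576 (log2 fold change -1.14, SE 0.17, adjusted p = 0.00545). This call was lost without WT replicate 1, at -1.15. The collagen-binding integrin subunit Itga1 fell from 22 and 13 counts to 5 and 6 (CPM ratio 0.244, adjusted p = 0.0389). This call was lost with DESeq2, without the filter and with library totals. It was also lost without WT replicate 1 or 2, at log2 fold changes of -1.48 and -2.51. The subunits of integrin alpha6 beta1, a laminin receptor of ESCs, were also looked at after their values were seen. Their log2 fold changes were 0.02 (SE 0.18) for Itga6 and -0.13 (SE 0.18) for Itgb1, and neither passed.

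Of the 11 genes for the glycan by which dystroglycan binds laminin, 5 rose and none fell (none at an unadjusted p under 0.05, and none with DESeq2), with 1 and 2 higher without WT replicate 1 and 2. Pomgnt2 rose from 33 and 45 counts to 274 and 269 (log2 fold change 2.47, adjusted p = 0.00338). Of 12 proteases, heparanase and inhibitors, 7 rose and 1 fell, with 2 and 1 higher without WT replicate 1 and 2. The membrane metalloprotease Mmp15 rose from 67 and 92 counts to 466 and 450 (log2 fold change 2.20, adjusted p = 0.00304), heparanase (Hpse), which cuts the chains of perlecan, from 22 and 21 to 169 and 106 (log2 fold change 2.33, adjusted p = 0.00648) and Adamts1 from 3 and 6 to 37 and 25 (log2 fold change 2.43, adjusted p = 0.0164). The metalloprotease inhibitor Timp1 fell from 1723 and 1783 counts to 681 and 700 (log2 fold change -1.68, SE 0.17, adjusted p = 0.00287). Of the other inhibitors of this family, named after their values were seen, Timp2 rose from 69 counts in each WT library to 247 and 180 (log2 fold change 1.29, adjusted p = 0.0151), and Timp3 did not pass, at 0.82 (adjusted p = 0.16). In Mmp15, Hpse and Adamts1 both clones were above both WT cultures, and in Timp1 both were below.

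Markers of other cell types that make basement membranes were also compared between the groups. For scale, the same test called 17.6% of all tested genes as rising and 16.2% as falling. Of 16 markers of primitive, visceral and parietal endoderm, 12 were tested and 11 rose, with none lower (none at an unadjusted p under 0.05, and none with DESeq2), and 5 and 8 passed without WT replicate 1 and 2. Their summed level was 13.1 and 18.2 CPM in WT and 82.8 and 59.5 CPM in Pim3-/-. Gata4 had 22 and 44 counts in WT, against 187 and 173 in Pim3-/-, Gata6 had 11 and 19 against 240 and 112, and Sox17 had 1 and 5 against 85 and 10. Their adjusted p-values were 0.00636, 0.00526 and 0.0409, and the log2 fold change of Sox17 was 3.61, or 1.39 without Pim3-/- replicate 1. Sox17 did not pass without that library or without either WT library, and Gata6 was at 2.58 without Pim3-/- replicate 1, against 3.22 with it. Sox7 went from 3 and 0 counts to 91 and 67 (ratio 42.0, counting interval 14.1 to 206) and Pth1r, a receptor of parietal endoderm, from 6 and 8 to 149 and 133 (log2 fold change 3.98, adjusted p = 0.00287). Sox7, Sox17 and Pth1r passed the filter on low counts through their Pim3-/- counts alone, so that only a rise could be called. The same was true of Flt1 and Gata3 below. The fitted log2 fold change of Sox7 was 5.27, and it was 4.13 without WT replicate 2 and 9.22 without WT replicate 1, when WT is at 0 and the value depends on the prior count. Cubn, the tested marker that did not pass with edgeR, had 8 and 7 counts against 180 and 10 in Pim3-/-. DESeq2 called all 12 tested markers higher, Cubn among them. The 4 markers left out by the filter had at most 20 counts in any library, with Foxa2 and Ttr at 0 in WT and higher in the clones, Thbd overlapping between the groups and Afp at 5 and 2 counts against 3 and 2. The part of such cells in the levels of the basement membrane genes was not tested. Pim3-/- replicate 1 had more Gata6, Sox17 and Lamb1, and replicate 2 more Nid1, Lama5 and Hspg2.

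Other markers were less uniform. The summed level of 11 fibroblast markers was 38.6 and 39.7 CPM in WT and 78.6 and 73.8 CPM in Pim3-/-. Thy1, named after its values were seen, held the largest part in WT, at 20.9 and 19.8 CPM. It was at 19.0 and 18.2 CPM in Pim3-/- and did not pass (log2 fold change -0.13, SE 0.18). Of the 11 markers, 5 were tested and 3 rose. Pdgfrb (log2 fold change 2.05, adjusted p = 0.00338) and Col5a1 (1.45, adjusted p = 0.00514) were among them, while Lum and Prrx1 were at 0 in every library, Dcn had 1 count in all and Col1a1 had 33 and 38 counts against 140 and 52 in Pim3-/- (log2 fold change 1.09, adjusted p = 0.118, and 0.23 without Pim3-/- replicate 1). Of 8 endothelial markers, 5 were tested and 2 rose, namely Flt1, from 2 and 1 counts to 79 and 48 (ratio 33.7, counting interval 11.3 to 166, with a fitted log2 fold change of 4.96 that was 5.57 and 4.38 without WT replicate 1 and 2), and Tek (log2 fold change 1.00, adjusted p = 0.0271). Their summed level was 130.1 and 135 CPM in WT and 149.8 and 222 CPM in Pim3-/-, most of it Pecam1, which ESCs express (log2 fold change 0.41, SE 0.22), and Emcn was at 0 in every library. Of 8 trophoblast markers, 5 were tested and 3 rose, with summed levels of 69.5 and 71.5 CPM in WT and 69.3 and 94.5 CPM in Pim3-/-. The largest part was Tfap2c, named after its values were seen, at 59.1 and 60.5 CPM in WT and 35.1 and 56.1 CPM in Pim3-/-. It was lower in both clones and did not pass (log2 fold change -0.39, SE 0.23). Eomes (log2 fold change 2.24, adjusted p = 0.0072, and 1.60 without Pim3-/- replicate 2) and Gata3 (2.28, adjusted p = 0.0187, not called by DESeq2) rose, Cdx2 had 1 and 5 counts against 12 and 2 in Pim3-/-, and Prl3d1 was at 0 in every library. Without WT replicate 1, 1 gene of each of these 3 lists passed. The part of these cell types in the members' levels was not tested.

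Of 8 stem cell markers 1 rose and 3 fell, and with library totals 3 rose and 1 fell. Pou5f1 had a log2 fold change of -1.12 (adjusted p = 0.00993), Dppa5a one of -0.97 (adjusted p = 0.02) and Nanog one of -0.90 (adjusted p = 0.0155), and with library totals Dppa5a and Nanog did not pass, at -0.51 and -0.45. Dppa5a did not pass with the replicate block either (-0.96, adjusted p = 0.0655), nor without either WT library (adjusted p = 0.196 and 0.0708). Klf4 rose, with a log2 fold change of 1.44 (adjusted p = 0.00369), a call that was lost without WT replicate 1. Sox2 did not pass, at 0.38 (SE 0.22). Their summed level was 10228 and 9185 CPM in WT and 6588 and 6237 CPM in Pim3-/-. Such sums hold genes of unlike abundance and do not measure shares of cell types. For Pim3-/- ESCs, the paper reports by qPCR that Oct4 and Sox2 were not disrupted and that Nanog was upregulated. It also shows NANOG protein by western blot. The counts of Nanog here differ in the opposite direction and those of Pou5f1 were lower, and the reason was not tested.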

How the data were processed

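Gene counts from 4 RNA-seq libraries, 2 WT and 2 Pim3-/-, were compared. The authors deposited raw counts per gene, without normalization, and these were used as they stand. The paper's methods name Cutadapt and Hisat2 with the mm10 assembly, whereas the submitters' processing notes list Trim Galore, STAR, featureCounts and GRCm38. Which of them made the counts, their versions and the use of strand are not given in the sources used here. The deposited counts of transposable elements were not used here.

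Low genes were removed by filterByExpr at a minimum count of 10 and a minimum total of 15, and the rest were scaled by TMM factors and compared by quasi-likelihood F-tests with edgeR 4.0.16 in R 4.3.3, with Benjamini-Hochberg adjustment over all tested genes. CPM use the same factors, and standard errors are the log2 fold change over the square root of F. The fit was tested on simulated counts. Exon lengths and positions are from GENCODE M21 (GRCm38), promoter windows from RefSeq. Counting intervals are exact binomial (Clopper-Pearson) at 95%, and these and the 3 counts that a count of 0 allows cover counting error only. Distances used log2 of CPM plus 0.5. Figures were drawn with matplotlib 3.10.9.

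The members, the companion and marker lists and the tests were chosen with earlier results of these data known. All 10 members are named. Companion genes are named if they had one of the 3 highest or lowest log2 fold changes of their list among genes at an adjusted p under 0.05 with 10 counts or more in each library of the higher group, and markers likewise with 2, beside defining markers. Some genes that meet these rules are not reported here. Others are named as chosen after their values were seen. Alternatives for the marker genes were added after seeing the data. The alternatives were DESeq2 size factors, library totals, no filter, a filter of 10 counts in all libraries, a replicate block, DESeq2 1.42.0 with its Wald test, each library left out and, for ratios, the longest transcript. An exact permutation test of 2 libraries against 2 cannot give a two-sided p below 0.333, so none was run. P-values measure only the spread between these cultures and clones.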

Additional observations from a re-analysis of the deposited data

How the results depend on the processing

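With 2 libraries per group the calls rest on the spread that all genes share. Library totals in place of TMM factors raised all genes called higher from 3246 to 6606 and reduced those called lower from 2987 to 1092, as the median of all genes moved by 0.45. They left 2 companion genes lower and moved the members' median log2 fold change to 1.74, and that of all genes with it. With 1 library left out, 402 to 5393 genes were higher and 373 to 5255 lower, 12 to 50 companion genes were higher and 1 to 11 lower, and the members' median lay between 1.02 and 1.42. The low counts of calls came without a WT library, where the spread within a group came only from the 2 Pim3-/- clones. The high ones came without a Pim3-/- library, where it came only from the 2 WT cultures and holds no difference between clones. The part of this in the number of calls was not tested. The members' median was lowest without Pim3-/- replicate 2. Per kb of the longest transcript, Lamb1 to Lamc1 was 0.257 in WT and 0.63 in Pim3-/-, and Col4a1 to Col4a2 was 2.35 in Pim3-/-. Levels per kb of the longest transcript were added after seeing the data.

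The remaining alternatives (DESeq2 size factors, both filters, the Wald test and the replicate block) kept these counts within 1.5 times, and all of them but the Wald test, which was not run on it, kept the members' median between 1.23 and 1.38. Of the 30 companion genes followed singly, none changed direction under any alternative. The Wald test lost 5 of their calls and no filter lost 3, and library totals lost Ppib and Itga1. With the replicate block, 3403 genes were higher and 3272 lower, and 42 companion genes higher and 5 lower. Same-numbered libraries did not deviate together (correlation 0.03 across genes), so that they share a number and nothing else is known to pair them. At this depth a gene at 0 can hold up to 3 counts.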
